A study of Gallus gallus with 6 samples.

Results

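Transcription factors that specify blood and endothelium were followed on arrays of chick epiblast that had been exposed to head mesoderm. The list holds 7 genes: LMO2, TAL1, GATA1, FLI1, ERG, SPI1 and RUNX1. A probe set was taken as a member where the platform annotation gave it a single gene symbol, current or older, that is on the list. This found 13 of the 37690 probe sets, for 6 of the 7 genes. No probe set carried the symbol GATA1, so that the erythroid GATA factor has no value here. The induced group is area opaca epiblast of hosts at stage HH4- that lay under a graft of lateral head mesoderm from stage HH6 embryos for 12 hours, after which the graft was taken off. The control group is area opaca from the contralateral side, which received no graft. Both groups are extraembryonic tissue cut out by hand from host embryos, and the labels name no strain or genotype. Each group has 3 arrays, numbered as biological repeats. Whether a sample pools embryos, or equal numbers share hosts, is not given here, so the tests speak for the spread among these arrays, which may be technical.

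The area opaca is the extraembryonic rim of the chick blastoderm, where the first blood islands form from mesoderm that spreads between the epiblast and the yolky endoderm. The blood islands give rise to primitive red cells and to the endothelium of the yolk sac. In this lineage TAL1, a basic helix-loop-helix protein, binds DNA together with E proteins such as TCF3 and TCF12. LMO2 has no DNA contact of its own and bridges TAL1 to GATA factors, with LDB1 in the same complex. FLI1 and ERG are closely related ETS factors of endothelium and blood precursors, SPI1 (PU.1) is the ETS factor of myeloid cells, and RUNX1 with its partner CBFB acts in the emergence of definitive blood cells from endothelium.

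Median signals were 7.5 to 18.35 units in the induced arrays and 7.7 to 17.7 units in the control arrays, and both arrays of repeat 1 were the bright ones. Arrays were therefore brought to a common distribution, and levels below are log2(signal + 16) after that step, while signals are the deposited units. Adding 16 makes fold changes of weak probe sets too small: on each array 46.9% to 63.7% of all probe sets read less than 16 units. Of 10118 genes tested by limma at an adjusted p under 0.05, 18 fell (0.178%) and 20 rose (0.198%), against 19 and 11 with each array centred on its median. Epiblast and surface ectoderm markers, among them CDH1 and EPCAM, were measured in both groups. Of the 15 listed 11 had a probe set, and each reached 16 units on at least 1 array. Their summed level was 10913 to 11418 units in the induced arrays and 9415 to 11034 units in the controls. Of the 11 tested, 10 had higher means in the induced arrays (median log2 fold change 0.27), and 0 passed by limma. At an unadjusted limma p under 0.05, 3 were higher and 0 lower, beside 5.61% and 6.02% of all genes tested. These were OTX2 at 2.08 (limma adjusted p = 0.0768), GATA3 at 0.89 and SOX3 at 0.49.

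LMO2 and TAL1 fell in the induced epiblast, by log2 fold changes of -2.18 and -1.74. FLI1 and the first probe set of ERG had lower values in all 3 induced arrays than in any control, and neither gene passed the test. In the second ERG probe set the groups overlapped. SPI1 was weak in both groups, and of the 6 genes RUNX1 alone had a higher mean in the induced arrays, with overlapping groups. Thus 2 of 6 member genes passed in the lower direction, beside 0.178% of all genes, and 0 passed in the higher direction, beside 0.198%. The genes were put on the list with earlier results of these data known, so the count describes the list and supports nothing further.

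**Figure D1:**
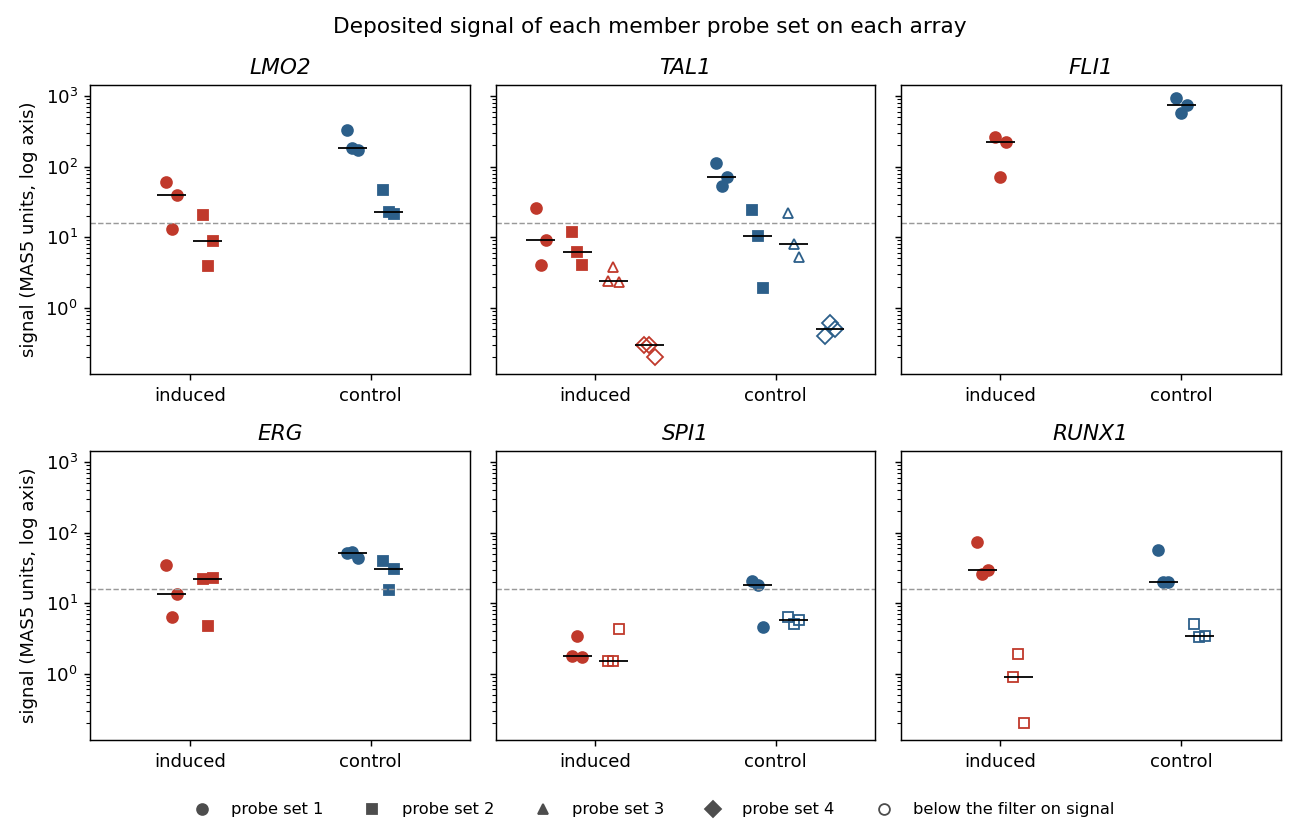
Deposited signal (MAS5 units, log axis) of the 13 member probe sets on the 3 induced arrays (red, left) and the 3 control arrays (blue, right), with a bar at the median, and open symbols for the 4 probe sets below the filter on signal. The dashed line marks 16 units. The induced arrays lie below all controls in the first probe sets of LMO2, TAL1, FLI1 and ERG, while the groups overlap in the first probe set of RUNX1.

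LMO2 is the bridging protein of the complex. Its stronger probe set gave signals of 61, 13.1 and 39.3 units in induced samples 1 to 3 and of 333.2, 184.2 and 172.7 units in control samples 1 to 3. The highest induced signal was thus well under the lowest control signal, although induced sample 1 sat on a bright array. On the common scale the level was 5.68 ± 0.62 in the induced samples and 7.86 ± 0.21 in the controls (SD, n = 3 each). The log2 fold change was -2.18 (SE 0.296, 95% interval -2.84 to -1.52), with a limma adjusted p of 0.0162 over genes and 0.0301 over the 22614 probe sets tested. By the size of its fall LMO2 ranked 7 among the 10118 genes tested. Induced sample 2 was the lowest of the 3 and induced sample 3 the highest, at 5.04 and 6.29.

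The second LMO2 probe set is of a kind that can match several transcripts. It had 20.8, 3.9 and 8.9 units in induced samples 1 to 3 and 46.7, 22.5 and 21.1 units in the controls. The induced and control levels did not overlap on the common scale, and the order of the induced arrays was as in the first probe set, with sample 2 lowest and sample 3 highest. Its log2 fold change was -0.75 (SE 0.187), and it did not pass over probe sets (limma adjusted p = 0.203). Both probe sets of LMO2 were lower, by unequal amounts: the difference of the fold changes, first minus second, was -1.43 (two-sided exact permutation p = 0.1). That is the smallest p that 3 against 3 arrays can give, so single values cannot pass a threshold of 0.05 by this test. The weaker probe set had 2 of 3 induced arrays under 16 units, where the scale is compressed.

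The LMO2 call rested on several arrays. Without control 2, control 3, induced 1 or induced 2 the limma adjusted p over genes was 0.0525, 0.0767, 0.0569 and 0.0694, at fold changes of -2.08, -2.24, -2.15 and -1.86. Without normalization between arrays it was 0.0761 (-2.24). The difference was -2.15 when the 4 dimmer arrays were taken alone (limma adjusted p = 0.14) and -2.00 between the 2 bright ones.

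TAL1 is the DNA-binding partner in the same complex and an early marker of blood and endothelial precursors. The probe set with the highest mean had 25.7, 4 and 9 units in induced samples 1 to 3, against 112.5, 53.3 and 71.9 units in the controls. Induced samples 2 and 3 were under 16 units, and all 3 controls were well above it. Levels averaged 4.77 ± 0.30 in the induced samples and 6.51 ± 0.12 in the controls (SD, n = 3 each). The TAL1 log2 fold change was -1.74 (SE 0.203, 95% interval -2.20 to -1.29), with a limma adjusted p of 0.0112 over genes and 0.0187 over probe sets. By p it ranked 5 among the genes tested, and LMO2 15. Because the induced signals lie in the range that the added 16 compresses, the fold change depended on that constant: it was -2.74 with 1 and -0.90 with 64 in its place.

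The other 3 TAL1 probe sets were weak. Probe set 2 had 11.8, 6.2 and 4.1 units in induced samples 1 to 3 and 24.7, 10.3 and 1.9 units in the controls. Its groups overlapped, with control 3 the lowest of all 6 arrays, and its log2 fold change was -0.17 (SE 0.219, limma adjusted p = 0.895 over probe sets). Probe set 3, of a kind that can match several transcripts, lay just under the filter, at a mean level of 4.49 where 4.50 was needed, with 2.4, 3.8 and 2.3 units in the induced samples and 21.9, 7.9 and 5.3 units in the controls. In this probe set the groups did not overlap, and the difference of means was -0.45 on the log2 scale. Probe set 4 read 0.2 to 0.3 units in the induced arrays and 0.4 to 0.6 units in the controls, far under 16 units in both groups. The fold change of the first probe set was lower than that of probe set 2, with a difference of -1.58 (two-sided exact permutation p = 0.1). Against probe sets 3 and 4, both below the filter, the difference was -1.30 and -1.72 (two-sided exact permutation p = 0.1 each). Since these probe sets lay where the scale is compressed, the differences cannot separate disagreement from weak signal. Of the 4 probe sets, 1 thus carried the call. With the mean of the kept probe sets in its place the gene had -0.95 and a limma adjusted p of 0.0511.

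Without induced sample 2 the limma adjusted p of TAL1 over genes was 0.0694 (-1.58), and with each of the other 5 arrays left out it was 0.0111 to 0.0499. It was 0.0852 without normalization between arrays (-1.74). The dimmer arrays alone gave -1.73 (limma adjusted p = 0.0592), and the bright arrays differed by -1.39.

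FLI1, an ETS factor high in the hierarchy of blood and endothelial development, had a single probe set, of a kind that can match several transcripts. Its signals were 263, 71.8 and 223.7 units in induced samples 1 to 3 and 939.7, 578.6 and 748.3 units in control samples 1 to 3. All 6 arrays were far above 16 units, and the highest induced signal was under the lowest control signal. Levels were 7.54 ± 0.97 in the induced samples and 9.51 ± 0.35 in the controls (SD, n = 3 each). The log2 fold change was -1.97 (SE 0.40, 95% interval -2.86 to -1.07), with rank 10 from the lowest value, at a limma adjusted p of 0.0802 over genes and 0.128 over probe sets. The induced samples differed widely among themselves, at 7.37, 6.67 and 8.58, and this spread went into the SE. Without induced sample 3, the highest of these, the fold change was -2.50 with a limma adjusted p of 0.00485. Without induced sample 2, the lowest, it was -1.54 (limma adjusted p = 0.293), and with each of the other 4 arrays left out the adjusted p was 0.076 to 0.24. With each array centred on its median the adjusted p was 0.0488 (-2.05). The dimmer arrays alone gave -2.06 (adjusted p = 0.285), and the bright arrays differed by -1.75.

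ERG, the close relative of FLI1, was measured by 2 probe sets. The first, with the higher mean, had 34.6, 6.3 and 13.3 units in induced samples 1 to 3, against 51.8, 53.6 and 43.5 units in the controls. The groups did not overlap, and induced sample 2 was again the lowest. Levels averaged 5.01 ± 0.33 in the induced samples and 6.05 ± 0.48 in the controls (SD, n = 3 each). The log2 fold change of -1.04 (SE 0.269, 95% interval -1.64 to -0.44) did not pass (limma adjusted p = 0.158 over genes). The 2 bright arrays differed by -0.38, against -1.24 among the 4 dimmer ones. Whether this difference in size exceeds chance was not tested. With 64 in place of 16 it was -0.52, and with 1 it was -1.62.

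The second ERG probe set is of a kind that can match several transcripts. It had 22.2, 4.7 and 22.9 units in the induced samples and 40.2, 15.6 and 30.7 units in the controls. Its groups overlapped, since induced sample 3 stood above all 3 controls on the common scale, at 5.70 against at most 5.65. Its log2 fold change was -0.40 (SE 0.284, 95% interval -1.04 to 0.23, limma adjusted p = 0.731 over probe sets). The fold changes of the ERG probe sets differed by -0.64 (two-sided exact permutation p = 0.2).

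**Figure D2:**
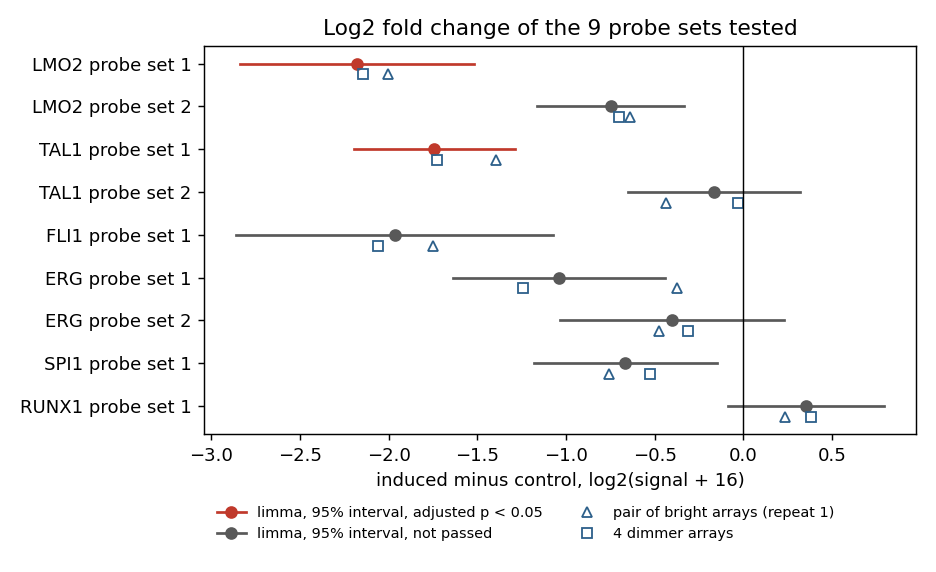
Log2 fold change, induced minus control, of the 9 member probe sets tested, with limma's 95% interval (bars) and the values within the pair of bright arrays (triangles) and within the 4 dimmer arrays (squares). The probe sets in red, the first of LMO2 and of TAL1, passed over probe sets, at -2.18 and -1.74. The interval of FLI1 is wider, from -2.86 to -1.07, and that of RUNX1 runs from -0.08 to 0.79.

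SPI1, the myeloid ETS factor, gave weak signals. Its first probe set, which can match several transcripts, had 1.8, 3.4 and 1.7 units in induced samples 1 to 3 and 20.5, 18.2 and 4.6 units in the controls. No induced array reached 16 units, and 2 of the 3 controls did. The mean over both groups, 4.56, passed the filter by little and did so through the controls, at 4.89 ± 0.49, while the induced samples averaged 4.23 ± 0.14 (SD, n = 3 each). A lower value in the induced samples was therefore built into its being tested. The log2 fold change was -0.67 (SE 0.232, limma adjusted p = 0.293 over genes). The other probe set stayed at 1.5 to 4.3 units in the induced arrays and 5.1 to 6.3 units in the controls, below the filter. The fold changes of the SPI1 probe sets differed by -0.45 (two-sided exact permutation p = 0.3). At such weak signals their agreement could not be judged.

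The measurable probe set of RUNX1 did not pass the test. It had 72.9, 25.6 and 30 units in induced samples 1 to 3, against 56.2, 19.7 and 19.8 units in the controls. The groups overlapped both in signal and on the common scale. Levels averaged 5.82 ± 0.21 in the induced samples and 5.46 ± 0.20 in the controls (SD, n = 3 each). The log2 fold change was 0.35 (SE 0.197, 95% interval -0.08 to 0.79), with a limma adjusted p of 0.553 over genes. The control level of 5.46 lies near the lower end of the log2(signal + 16) scale. It leaves no room for a fall as large as that of LMO2 or TAL1, so the interval cannot speak to such a fall. The other probe set had at most 1.9 units in the induced arrays and 3.3 to 5 units in the controls, below the filter. The fold changes of the RUNX1 probe sets differed by 0.58 (two-sided exact permutation p = 0.2). The second was too weak for their agreement to be judged.

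Over the probe sets, 9 of the 13 members passed the filter on signal and 4 did not. Of the 9, 2 fell at an adjusted p under 0.05, where the background over all probe sets tested was 0.0310%, and 0 rose, where it was 0.0663%. All 3 induced values lay below all 3 control values in 6 of the 9, against 6.65% of all probe sets tested. These 6 include SPI1, which was tested through its controls alone, and without it the count was 5 of 8. Of all 13, the induced mean was below the control mean in 12, the exception being the first probe set of RUNX1. The 13 include several probe sets of the same gene and the 4 below the filter. The share over all probe sets was not counted, so the 12 cannot be read as a result about the members. The median log2 fold change of the 6 member genes was -1.39, or -1.74 over 5 genes without SPI1, beside 0.02 over all genes tested.

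**Figure D3:**
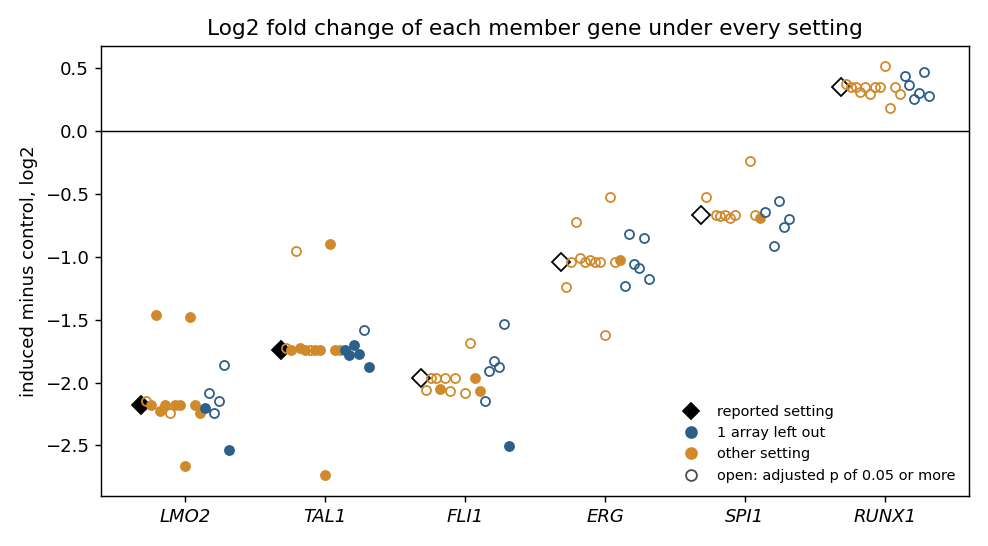
Log2 fold change of the 6 member genes in the reported setting (black diamonds), with 1 array left out (blue) and in other settings (orange), filled where the limma adjusted p over genes was under 0.05. LMO2, TAL1, FLI1, ERG and SPI1 stay below 0 and RUNX1 above 0 in all settings shown. LMO2 ranges from -2.66 to -1.46, TAL1 from -2.74 to -0.90 and FLI1 from -2.50 to -1.54.

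Several members shared the position of induced sample 2, but not the full order of the arrays. Induced sample 2 had the lowest level of the 3 induced arrays in the first probe sets of LMO2, TAL1, FLI1 and ERG, and also in that of RUNX1, but the highest in that of SPI1. Over the 6 arrays the level of LMO2 correlated with that of TAL1 at r = 0.974, with FLI1 at 0.964 and with ERG at 0.921, and SPI1 correlated with these 4 at 0.581 to 0.746. RUNX1 correlated negatively with the other 5, at -0.657 to -0.473. These values share the arrays and hold the difference between the groups. The 3 other named genes most like LMO2 were OSGIN1, CYP3A4 and MBNL1 (r of 0.988 to 0.990), and those most like TAL1 were SLCO5A1, CPT2 and LIN54 (0.982 to 0.988). For FLI1 they were CHMP4B, TMLHE and CLDN5 (0.990 to 0.999), the last being a claudin of endothelial tight junctions. For ERG they were EDEM1, AKR7A2 and SLC25A36 (0.992 to 0.994), for SPI1 MRAP2, PSD3 and RC3H2 (0.983 to 0.995), and for RUNX1 STK32C, YEATS2 and NIPSNAP2 (0.986 to 0.989). None of these 18 genes passed by limma over genes.

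No gene for a partner in the same complexes passed the test. Of 10 listed partners 7 were tested, 6 of them had higher means in the induced samples, and 0 passed in either direction by limma, with 1 of 7 higher at an unadjusted p under 0.05, where 5.61% of all genes tested were (median log2 fold change 0.22). The E protein gene TCF12 had 0.35 (SE 0.166, limma adjusted p = 0.461), and TCF3 had 0.18. CBFB, the partner of RUNX1, also had 0.35, and SSBP2, a single-stranded DNA-binding protein that attaches to LDB1, had 0.64 (SE 0.251, limma adjusted p = 0.369). LDB1 and GATA2 lay under 16 units on all 6 arrays, so that these partners could not be followed.

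Among other transcription factors of blood and endothelium 14 were tested, 11 had lower means and 3 higher, and 0 passed by limma, with 4 lower and 1 higher at an unadjusted p under 0.05, beside 6.02% and 5.61% of all genes tested (median -0.25). HHEX, a homeobox factor of endothelium, blood and endoderm, had 634.3, 210.9 and 362.4 units in induced samples 1 to 3 and 1843.9, 680.1 and 967.3 units in the controls. Its levels did not overlap on the common scale, and the log2 fold change was -1.43 (SE 0.255, limma adjusted p = 0.0519). KLF2, a flow-responsive factor of endothelium, had -0.83 (SE 0.227, limma adjusted p = 0.177). GATA3, which is also a factor of surface ectoderm, had 0.89 (SE 0.259, limma adjusted p = 0.204), and its groups did not overlap either. MYB, IKZF1, MEF2C and HOXB4 lay under 16 units on all arrays.

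Most of the endothelial and erythroid genes tested had lower means. The median log2 fold change over all genes tested was 0.02. Of 15 endothelial genes tested 14 had lower means (median -0.76). The exception, ESAM, had a control mean under the filter and was tested through its induced arrays. ROBO4 lay under 16 units on all arrays and was not tested. At an unadjusted limma p under 0.05, 9 were lower and 0 higher, beside 6.02% and 5.61% of all genes tested. At an adjusted p under 0.05, 1 of the 15, KDR, fell, beside 0.178% of all genes tested. KDR, the vascular endothelial growth factor receptor of early blood and endothelial precursors, had 43.3, 16.7 and 26.2 units in induced samples 1 to 3 and 252.6, 90.2 and 136.9 units in the controls. Its log2 fold change was -1.84 (SE 0.216, limma adjusted p = 0.0112). CD34, a surface protein of endothelium and blood progenitors, and EGFL7, a secreted endothelial protein, had -0.99 and -1.06 (limma adjusted p = 0.0938 and 0.128). The KDR call was lost without control 3, induced 1 or induced 2 (limma adjusted p of 0.0539, 0.056 and 0.0694), without normalization between arrays (0.162) and in the dimmer arrays alone (0.101). Its value was -1.05 with its kept probe sets averaged and -1.17 with a constant of 64.

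EPB42, SLC4A1 and GYPC of the erythroid list lay under 16 units on all arrays. Of 11 erythroid genes tested 9 had lower means (median -0.79). At an unadjusted limma p under 0.05, 6 were lower and 0 higher, beside 6.02% and 5.61% of all genes tested. At an adjusted p under 0.05, beside 0.178% of all genes tested, 1 of the 11 fell, the water channel gene AQP1. It had 32.8, 18.7 and 22.2 units in induced samples 1 to 3 and 271.2, 66.7 and 167.8 units in the controls, and the log2 fold change was -1.95 (SE 0.265, limma adjusted p = 0.0162). AQP1 lost its call without control 3, induced 1 or induced 2 (limma adjusted p of 0.0767, 0.0737 and 0.124), without normalization between arrays (0.0931) and in the dimmer arrays alone (0.206), and its value was -1.23 with a constant of 64. The globin genes HBZ and HBBR had -1.52 and -2.21 (limma adjusted p = 0.0722 and 0.09). HBBR read 13.7, 2.1 and 6.6 units in induced samples 1 to 3, under 16 units in each. The globin genes HBAD and HBE had -0.95 and -0.40 (limma adjusted p = 0.2 and 0.779), and the groups of HBE overlapped. The summed level of the 15 erythroid genes with a probe set also overlapped, at 1868 to 2087 units in the induced arrays and 2058 to 2615 units in the controls. EPB41 was the strongest gene in this sum, at mean levels of 10.12 in the induced samples and 9.95 in the controls. Its log2 fold change was 0.17 (limma adjusted p = 0.573), so the sum says little of the globin genes. Of the 6 leukocyte and myeloid genes tested 5 had higher means and 0 passed by limma, with 0 at an unadjusted p under 0.05 (median 0.08). ITGB2, CYBB and PTPRC had log2 fold changes of 0.44, -0.44 and 0.22, while CSF1R and CD44 had 0.001 and 0.01. Signals of ITGB2, PTPRC, CSF1R and CD44 were under 16 units on most arrays, which limits what can be said of these genes. ITGB2 had a control mean of 4.31, under the filter, and was tested through its induced arrays, so that its higher mean was built in. CSF3R, LYZ and LAPTM5 lay under 16 units on all arrays. Of the thrombocyte genes 2 were tested, ITGB3 at 0.50 and F5 at -0.25, and 0 passed by limma. GP9 lay under 16 units on all arrays.

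**Figure D4:**
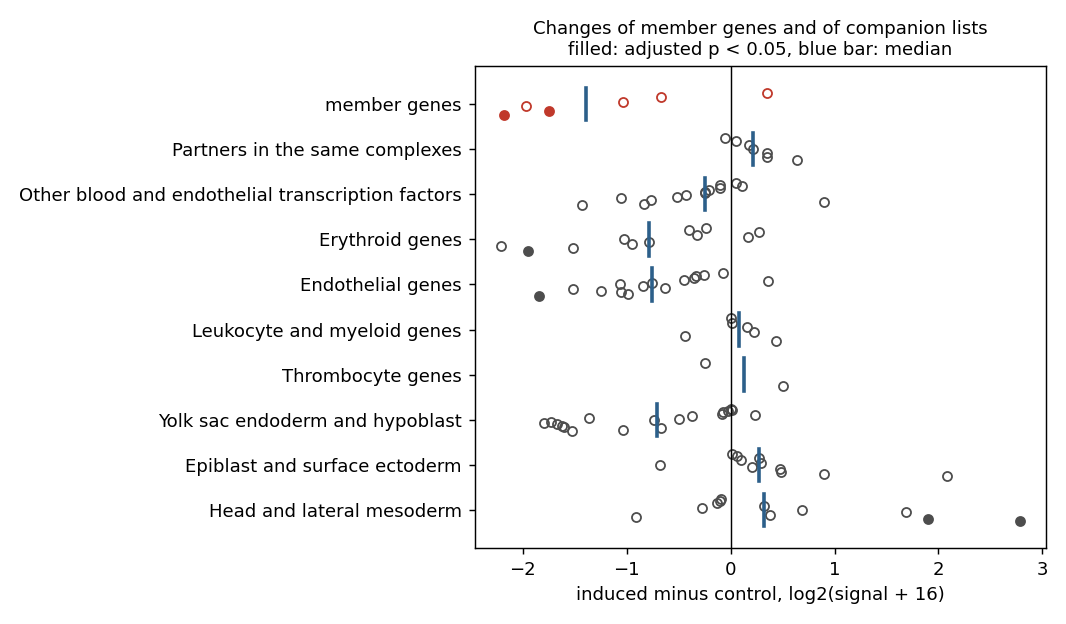
Log2 fold change, induced minus control, of the 6 member genes (red) and of the genes of 9 companion lists (grey), filled where the limma adjusted p over genes was under 0.05, with the median of each list as a blue bar. Endothelial and erythroid genes lie mostly below 0, with medians of -0.76 and -0.79, while partners in the same complexes have a median of 0.22.

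Fewer cells of a type and less RNA per cell cannot be told apart in these bulk samples. The summed level of the 16 endothelial genes with a probe set was 1089 to 2513 units in the induced arrays and 3474 to 4052 units in the controls. Markers of another tissue also had lower values in these arrays: of 18 yolk sac endoderm and hypoblast genes tested 15 had lower means (median -0.70), and 0 passed by limma. At an unadjusted p under 0.05, 10 were lower, beside 6.02% of all genes tested, and 2 of these 10, GATA4 and APOH, had induced means under the filter and were tested through their controls. The summed level of the 21 of 22 listed endoderm genes with a probe set was 2631 to 3239 units in the induced arrays and 3755 to 9234 units in the controls, with RBP4, AHSG and AFP under 16 units on all arrays. TTR, a thyroid hormone carrier, and HNF4A had log2 fold changes of -1.53 and -1.04 (limma adjusted p of 0.0526 and 0.148). Head and lateral mesoderm markers had a median of 0.32 over 11 genes, with 6 higher and 5 lower means. Of the 11, 2 passed in the higher direction, ISL1 at 2.79 and NKX2-5 at 1.90, beside 0.198% of all genes tested. At an unadjusted limma p under 0.05, 3 were higher and 1 lower, beside 5.61% and 6.02% of all genes tested. Among the 3, MESP1 (0.38) had a control mean under the filter and was tested through its induced arrays. FOXC1, among the lower means, was tested through its controls. SNAI2 had the lowest value, -0.91 (limma adjusted p = 0.335). FOXC2 and PRRX1 had 1.69 and 0.69, and TWIST1 and HAND2 had -0.09 and -0.10, all with overlapping groups. Without induced sample 2 the limma adjusted p of ISL1 and NKX2-5 was 0.0694 and 0.0757, and without induced sample 1 that of NKX2-5 was 0.056. NKX2-5 also lost its call in the dimmer arrays (0.101) and without normalization (0.062), and its value ran from 1.02 with a constant of 64 to 2.87 with 1. The summed level of the mesoderm markers was 1729 to 2605 units in the induced arrays and 430.3 to 1813 units in the controls, with MSGN1, TBX6, FOXF1, ALX1 and ALX4 under 16 units on all arrays. These ranges overlap. ISL1, which is part of the sum, had 849.2, 591.6 and 476.5 units in induced samples 1 to 3 and 176, 31.6 and 87.8 units in the controls. Whether ISL1 and NKX2-5 rose in mesoderm or in the epiblast itself was not tested. The part of these tissues in the lower LMO2, TAL1 and FLI1 signals was not tested.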

How the data were processed

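Total RNA of 6 samples was labelled with biotin and hybridized to 1 Affymetrix array each, per the labels' protocols. The deposited table holds 1 linear intensity per probe set and array, and MAS5 is named per the submitters' processing notes. Version, scaling target and background correction are not given here, detection calls were not used, and 0 further columns of sample values were present. Precision is limited by the number of arrays.

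From the deposited intensity values log2(signal + 16) was taken and quantile normalized between arrays, and probe sets with a mean under the 40th percentile (4.50) were dropped. The comparison was made by limma 3.58.1 under R 4.3.3 (lmFit, eBayes with a variance trend, group as the only term), with Benjamini-Hochberg adjustment over all 22614 probe sets or, with the probe set of highest mean for a gene, over all 10118 genes, at a threshold of 0.05. Differences between probe sets of a gene used the exact permutation test of scipy 1.17.1. The fit was tested on simulated data. Of the probe sets, 27166 had 1 symbol, 177 several and 10347 none, and symbols were brought up to date through RefSeq genes of the assembly GRCg7b. Coordinates and sequences are not printed, the array's genome build being unnamed in the sources used. Alternatives were other added constants, filters, scalings, the repeat number as a block, no trend, other choices of probe set, and each array left out.

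Members and lists were chosen with earlier results of these data known. Named genes are the members, the genes of each list that passed and the 3 with the lowest p, and for each member the 3 genes of highest correlation; genes used as examples beside these, such as TCF3, CDH1 and EPCAM, were chosen after their values were seen. The planned pairing of repeat numbers was checked by correlating deviations from the group means.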

Additional observations from a re-analysis of the deposited data

How the results depend on the processing

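The reported setting called 2 member probe sets and 2 member genes, LMO2 and TAL1, lower. In the 4 dimmer arrays and without normalization between arrays 0 probe sets and 0 genes were called, with a constant of 1 in place of 16 there was 1 probe set, and with kept probe sets averaged per gene 1 gene (LMO2). Leaving out 1 array gave 0 to 3 probe sets and 0 to 3 genes, with 0 of both without induced sample 2. The sign of all 6 member genes was kept in each setting run. LMO2 was called in 12 of 18 other settings, TAL1 in 14 of 18 and FLI1 in 4 of 17. SPI1 was not tested with a constant of 1, with the filter at the 60th percentile or without control 2, since its probe set then lay below the filter, and neither SPI1 nor FLI1 was tested once the kinds of probe set with several possible transcripts were dropped.

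Deviations of same-numbered arrays from their group means correlated at 0.553, -0.146 and 0.0695 in repeats 1 to 3. Without normalization between arrays these values were 0.690, -0.0313 and 0.233. With 3 arrays in each group this check cannot decide whether equal repeat numbers pair the samples. With the repeat number as a block 1 probe set and 3 genes (FLI1 added) were called, and with the block on values not normalized between arrays 6 probe sets and 5 genes.

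Over all genes 38 were called, against 4 in the dimmer arrays (2 lower, 2 higher), 9 without normalization (4 and 5), 21 without the variance trend (8 and 13) and 246 lower and 113 higher with the block on values not normalized. Over all probe sets 22 were called, against 5 (2 and 3), 12 (5 and 7), 23 (7 and 16) and 399 lower and 188 higher. Without induced sample 3 there were 55 genes lower and 65 higher, and without induced sample 2 there were 0 and 1. Without induced 3, probe sets numbered 45 and 65, and without induced 2, 0 and 2. The cause was not tested. Signals under 16 units limit what can be said of SPI1, of the second probe set of RUNX1 and of all TAL1 probe sets but the first. Induced samples 2 and 3 were also under 16 units in the first probe sets of TAL1 and ERG and the second of LMO2. In the first of LMO2 this held for induced sample 2. The sizes of these falls therefore depend on the added constant.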
